A study of Mus musculus with 12 samples.

Results

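The type I interferon-stimulated genes described here were 34 named genes of mouse dorsal skin, found by their gene symbol in both deposited expression tables, out of 55401 genes in each table. They fell into an Ifit group of 4 genes, an Oas group of 5, an Mx group of 2, a sensor group of 6, a transcription factor group of 3, an ISG15 group of 3 and a group of 11 other effectors. The samples were dorsal skin taken on day 29 from C57BL/6J mice, in 4 groups with 3 RNA-seq libraries each. The CRS mice underwent chronic restraint stress, the CRS+IMQ mice underwent the stress and received imiquimod, the IMQ mice received imiquimod alone, and the control mice had no treatment. Restraint stress confines an animal and activates its adrenal stress response, and imiquimod is an agonist of the endosomal RNA receptor TLR7 that is applied to mouse skin to produce a psoriasis-like inflammation. The series' design names the effect of psychological stress on psoriasis as its question.

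Type I interferons bind a receptor of the chains IFNAR1 and IFNAR2, whose kinases TYK2 and JAK1 phosphorylate STAT proteins, STAT2 among them. With IRF9 these form a complex that binds the interferon-stimulated response element (ISRE) and switches on many antiviral genes, a number of which keep a low basal level in healthy tissue. In skin, plasmacytoid dendritic cells are a known source of interferon, and keratinocytes, fibroblasts and immune cells all respond to it.

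The response element was looked for in promoter sequence, because it is the feature through which these genes are known to be coordinated. RefSeq promoter windows (build GRCm38.p6), each running from 250 bases before to 50 bases after a start site, were held for 25 of the 34 members. The ISRE core was searched as GAAANNGAAA, which reads TTTCNNTTTC on the other strand. It occurred in 14 of the 25 members, or 56.0%, against 3.99% of 27025 genes with a window and 3.44% of all 32851 windows. The GAS core, TTCNNNGAA, which is bound by STAT dimers and reads alike on both strands, occurred in 5 of the 25 members, or 20%, against 9.55% of genes and 8.30% of windows. In Bst2 a match to each motif overlapped. The stretches below, printed 5′ to 3′ on the strand of the gene, hold the ISRE cores of a member from each of several subfamilies, with each core in capitals; adjoining capitals in Isg15, Oas1a and Bst2 are cores that overlap or abut. The first is from Isg15 at chr4:156200845-156200926 on the minus strand, then Oas1a at chr5:120907526-120907575 on the minus strand, Ifit1 at chr19:34640755-34640843 on the plus strand, Ifit3 at chr19:34583343-34583446 on the plus strand, Rsad2 at chr12:26456533-26456602 on the minus strand, Ddx60 at chr8:61928004-61928086 on the plus strand, Stat2 at chr10:128270248-128270315 on the plus strand, Trim30a at chr7:104465194-104465259 on the minus strand and Bst2 at chr8:71537557-71537632 on the minus strand.
Isg15: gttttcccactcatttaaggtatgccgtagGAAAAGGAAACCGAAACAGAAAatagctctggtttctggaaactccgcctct
Oas1a: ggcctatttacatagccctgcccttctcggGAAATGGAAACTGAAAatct
Ifit1: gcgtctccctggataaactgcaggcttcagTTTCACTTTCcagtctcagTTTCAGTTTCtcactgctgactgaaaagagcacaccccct
Ifit3: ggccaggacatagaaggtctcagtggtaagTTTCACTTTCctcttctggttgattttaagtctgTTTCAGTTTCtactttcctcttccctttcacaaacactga
Rsad2: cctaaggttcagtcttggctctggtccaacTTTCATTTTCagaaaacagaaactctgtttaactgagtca
Ddx60: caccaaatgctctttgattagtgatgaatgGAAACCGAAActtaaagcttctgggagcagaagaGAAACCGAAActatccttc
Stat2: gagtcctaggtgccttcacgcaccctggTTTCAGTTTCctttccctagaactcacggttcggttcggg
Trim30a: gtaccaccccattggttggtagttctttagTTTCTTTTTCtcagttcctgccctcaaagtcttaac
Bst2: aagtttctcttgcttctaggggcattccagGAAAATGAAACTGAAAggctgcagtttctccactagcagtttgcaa

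Isg15 held 3 matches within its window, and 7 members held 2 or more. The stretch of Ifit3b (chr19:34607739-34607842) was letter for letter that of Ifit3. In Ddx58, Eif2ak2 and Ifih1 the matches lay after the start site. No match in a window says only that these letters were not in it: Ifit2, Oasl1, Oasl2, Irf7, Irf9, Herc6, Cmpk2, Xaf1, Samd9l, Ifi44 and Ifi35 had none. The other 9 members were not matched to a window.

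All values are FPKM (fragments scaled by exon length and by the size of the library), the unit the authors deposited. Depth was estimated from the steps between the lowest values as 19.05 to 21.15 M fragments per library, and 13248 to 13753 genes per library reached 1 FPKM. At these depths 29.1% to 33.5% of the low values lay within 0.05 of a whole fragment. The depths are therefore rough, and so are the fragment numbers and comparisons with counting noise that use them. Converted with these depths, a member had from 8.44 fragments in a library (Ifit2) to 6419 (Ifi27l2a), with exon length as well as FPKM setting that number. Whether libraries of the same group are from different mice is not in the labels, so p-values measure only the spread between libraries, which may be technical. Between pairs of libraries, the squared difference of well-covered genes was 2.51 to 3.09 times that of counting noise in CRS+IMQ and 3.55 to 13.5 times in CRS, against 23.5 to 148 times in IMQ and 36.2 to 170 times in control. Calls are therefore also given with CRS and with CRS+IMQ each reduced to the mean of its libraries as 1 sample, and that lone sample is assumed to vary like the IMQ or control libraries. IMQ replicate 3 lay between the other IMQ libraries in 91.3% of the 918 genes that differed at least 2-fold between those, at a median position of 0.398 of the way from replicate 1 to replicate 2 (quartiles 0.328 and 0.485). Control replicate 2 lay between the other control libraries in 81.7% of 575 such genes (quartiles 0.216 and 0.600), while for each library of the CRS and CRS+IMQ groups the share was 53.4% to 64.9%. Whether IMQ replicate 3 and control replicate 2 are independent of the other libraries of their groups was not tested, and results without each are given beside the main ones. The deposited tables split the groups, CRS with control and CRS+IMQ with IMQ, so that in IMQ versus control and in CRS+IMQ versus CRS the table and imiquimod cannot be told apart.

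Control skin had the highest level of nearly all interferon-stimulated genes, and the 3 treated groups lay below it. The 34 members summed to 246 to 261 FPKM in CRS libraries, 321 to 338 FPKM in CRS+IMQ libraries, 132 to 147 FPKM in IMQ libraries and 789 to 994 FPKM in control libraries. In 33 of the 34 members all 3 control libraries lay above the 9 other libraries, which held for 10.5% of all genes tested. The exception was Ifit2. Here and below, counts of members whose libraries lay apart take all 34 members, also those too low to be tested. The shares beside them take only genes at 1 FPKM or more in at least 3 of the libraries compared. In bulk skin RNA, fewer cells of a type and less RNA per cell cannot be told apart. As a share of the control mean, the median member stood at 21.9% in CRS (Ddx60 at 6.44% to Ifi35 at 68.9%), at 40.4% in CRS+IMQ (Ifi44 at 24.2% to Trim30a at 78.8%) and at 23.3% in IMQ (Oasl1 at 8.87% to Ifi35 at 59.4%).

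The order of the group means was control, CRS+IMQ, CRS, IMQ in 20 members and control, CRS+IMQ, IMQ, CRS in 12. Ifi35 had the order control, CRS, CRS+IMQ, IMQ, and Ifi44 had control, IMQ, CRS+IMQ, CRS. Neighbours at the low end were mostly not apart: the CRS and IMQ libraries overlapped in 25 members. All 3 CRS libraries lay below the IMQ libraries in Herc6, Rsad2, Cmpk2 and Trim30a (4 members, where 26.8% of all genes were so), and above them in Irf7, Bst2, Rtp4, Ifi27l2a and Ifi35 (5 members, where 13.7% of all genes were so). These levels stand in different tables and were not tested against each other. The median coefficient of variation of the members between libraries was 12.7% in CRS, 6.62% in CRS+IMQ, 14.7% in IMQ and 13.1% in control.

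**Figure D1:**
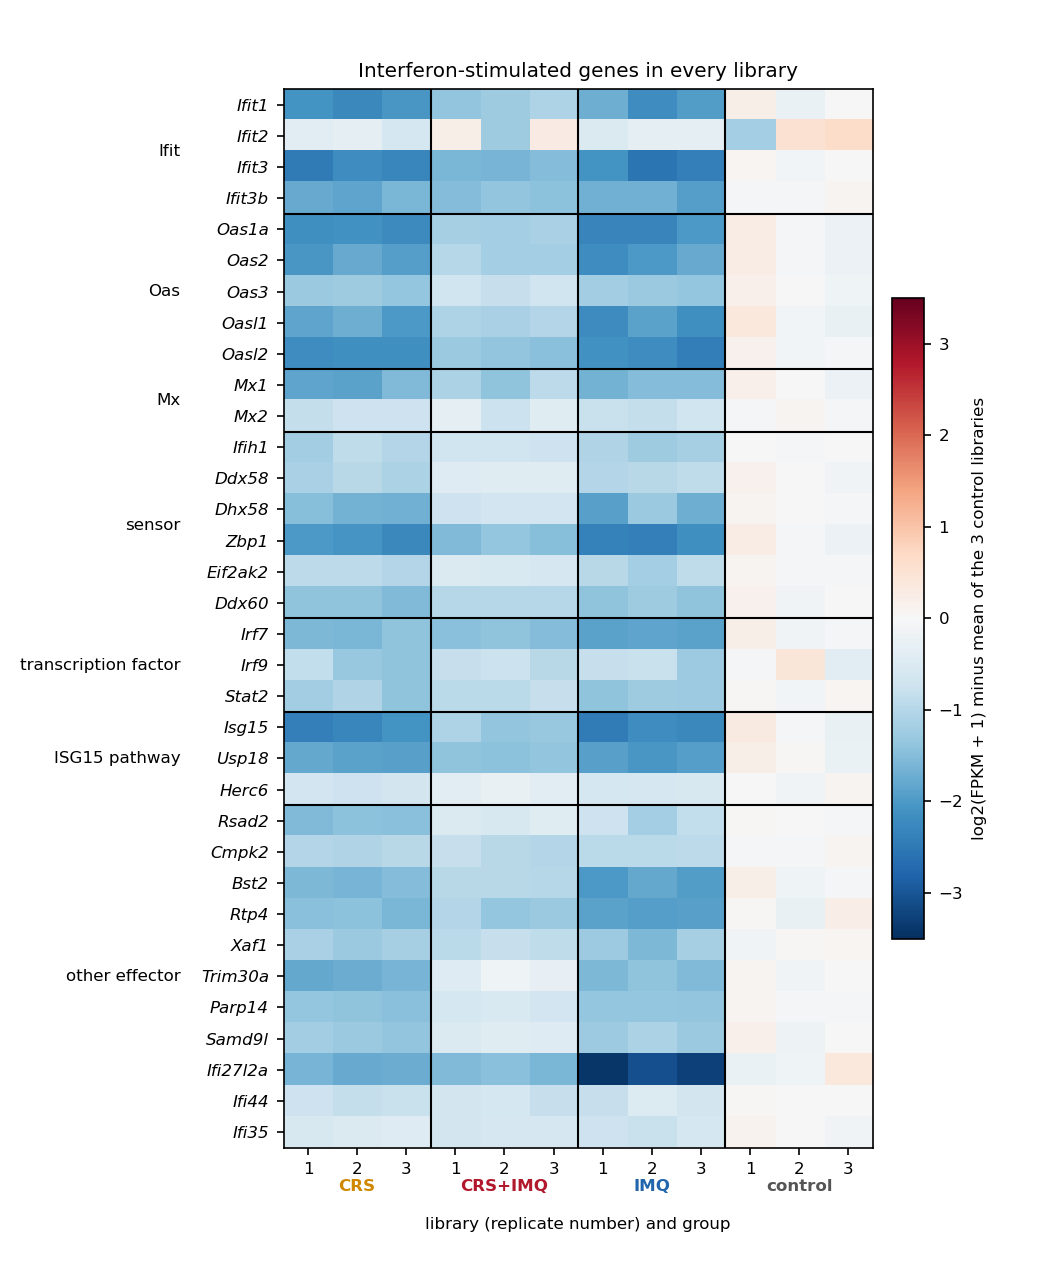
Each cell is log2(FPKM + 1) of a member in 1 library minus the mean of the 3 control libraries, with members in rows by subfamily and the 12 libraries in columns by group. The CRS and IMQ columns are the darkest, the CRS+IMQ columns lie between them and control, and Ifit2 breaks the pattern in CRS+IMQ replicate 2 and control replicate 1.

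Restraint stress without imiquimod came with lower levels throughout the set. In CRS versus control 31 of the 32 members tested fell (limma, Benjamini-Hochberg adjusted p under 0.05 over all genes), none rose and Ifit2 was not called, where 28.4% of all 13944 genes tested fell. The median difference of log2(FPKM + 1) was -1.51 over the members tested and -0.09 over all genes tested. All 3 CRS libraries lay below all 3 control libraries in 33 of the 34 members, against 36.0% of genes tested. The test needed 1 FPKM in 3 libraries. Herc6 and Ifi44 did not reach this, and Ifit1, Oas3, Oasl1, Mx1, Mx2, Ddx60 and Rsad2 (7 members) reached it only through the control libraries, so that the filter favored a fall and their calls are no support. Of the 22 members at 1 FPKM or more in every library of both groups, all fell, with a median of -1.59.

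Restraint stress with imiquimod went the other way. In CRS+IMQ versus IMQ 22 of the 28 members tested rose, none fell and 6 were not called, where 18.7% of all 13981 genes tested rose. The median difference was 0.69 over the members tested and -0.07 over all genes tested. Most of these calls were lost with each stressed group as 1 sample, where the members' median was 0.70. All 3 CRS+IMQ libraries lay above all 3 IMQ libraries in 28 of the 34 members, against 24.7% of genes tested, and the libraries overlapped in Ifit2, Mx2, Irf9, Cmpk2, Ifi44 and Ifi35. The 6 members not called were Ifit2, Ifit3b, Irf9, Rsad2, Cmpk2 and Ifi35, and the 6 not tested were Oas3, Mx1, Mx2, Ddx60, Herc6 and Ifi44. Of the 18 members at 1 FPKM or more in every library of both groups, 14 rose; Oasl1 and Rtp4 (2 members) passed the filter through the CRS+IMQ libraries alone, which favored a rise.

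Imiquimod alone also came with lower levels than no treatment. In IMQ versus control 31 of the 32 members tested fell, none rose and Ifit2 was not called, where 13.5% of all 13981 genes tested fell. The median difference was -1.53 over the members tested and 0.02 over all genes tested. All 3 IMQ libraries lay below all 3 control libraries in 33 members, against 23.0% of genes tested. All 18 members at 1 FPKM or more in every library of both groups fell, and Oas3, Oasl1, Mx1, Mx2, Ddx60 and Rtp4 (6 members) passed the filter through the control libraries alone.

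Within stressed mice, imiquimod came with higher levels. In CRS+IMQ versus CRS 22 of the 28 members tested rose, none fell and 6 were not called (Ifit2, Irf7, Irf9, Rtp4, Cmpk2 and Ifi35), where 35.0% of all 14021 genes tested rose. The median difference was 0.62 over the members tested and 0.06 over all genes tested. With each stressed group as 1 sample the members' median was again 0.62, but most of these calls were lost. All 3 CRS+IMQ libraries lay above all 3 CRS libraries in 27 members, against 38.8% of genes tested, and below them in Ifi35. Of the 22 members at 1 FPKM or more in every library of both groups, 18 rose, and Ifit1, Oasl1 and Rsad2 (3 members) passed the filter through the CRS+IMQ libraries alone. The calls of Ifit3b, Ifih1, Stat2 and Ifi27l2a were each lost when 1 of several libraries was left out. IMQ versus control and CRS versus control share their control libraries, and CRS+IMQ versus CRS shares each of its groups with another comparison, so the comparisons are not independent of each other.

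Whether the stress effect differed with and without imiquimod was tested as an interaction over all 12 libraries, (CRS+IMQ minus IMQ) minus (CRS minus control). A value above 0 does not require opposite directions, since a fall in CRS versus control can give it without a rise in CRS+IMQ versus IMQ. The interaction was above 0 in 31 of the 32 members tested, against 28.1% of all 14864 genes tested, and Ifit2 was not called. Oas3, Mx2 and Ddx60 reached 1 FPKM in control libraries alone, so that the filter favored a value above 0 and their calls are no support. Ifit3b, Irf9, Rsad2, Cmpk2 and Ifi35 were called in the interaction but not in CRS+IMQ versus IMQ. The median was 2.11 over the members tested and 0.04 over all genes tested. The largest values were 3.42 for Ifi27l2a, 3.28 for Isg15 and 3.21 for Oas1a, and the smallest called were 0.61 for Ifi35 and 1.03 for Mx2 and Cmpk2. Part of each value is the high control level, which enters with a positive sign.

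With each stressed group as 1 sample, 27 members fell in CRS versus control, where 4.34% of all genes tested fell; the calls of Ifi27l2a, Ifi35, Irf9 and Mx2 were lost, at adjusted p between 0.0600 (Mx2) and 0.157 (Ifi35). In the same setting 29 members were above 0 in the interaction, where 12.9% of all genes tested were, and the calls of Irf9 and Ifi35 were lost (limma adjusted p = 0.111 and 0.125). Of 28 members 2 rose in CRS+IMQ versus IMQ, Ifi27l2a (adjusted p = 0.0270, limma) and Trim30a (adjusted p = 0.0345), where 4.80% of all genes tested rose. Likewise 2 of 28 rose in CRS+IMQ versus CRS, Trim30a and Parp14, where 7.03% of all genes tested rose. These last counts are near the share over all genes. Without IMQ replicate 3, 21 members rose in CRS+IMQ versus IMQ (where 14.7% of all genes tested rose) and 30 fell in IMQ versus control (where 7.73% of all genes tested fell). There the count over all genes dropped to 1329, against 2735 with it. Without control replicate 2 the last count was 1482, and 30 members fell, where 8.35% of all genes tested fell. Another scaling moved the split of all genes but not the direction of the members' medians: with quantile normalization the genes called were 3710 higher and 2886 lower in CRS versus control, against 2131 higher and 3955 lower unscaled, and the median of all genes was 0.08. The same scaling gave 1458 higher and 1850 lower in IMQ versus control against 854 and 1881 unscaled, 3698 and 4867 in CRS+IMQ versus CRS against 4910 and 3626, and 3519 and 4622 in the interaction against 4172 and 3153. With median-ratio scaling CRS versus control had 3005 higher and 3286 lower.

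**Figure D2:**
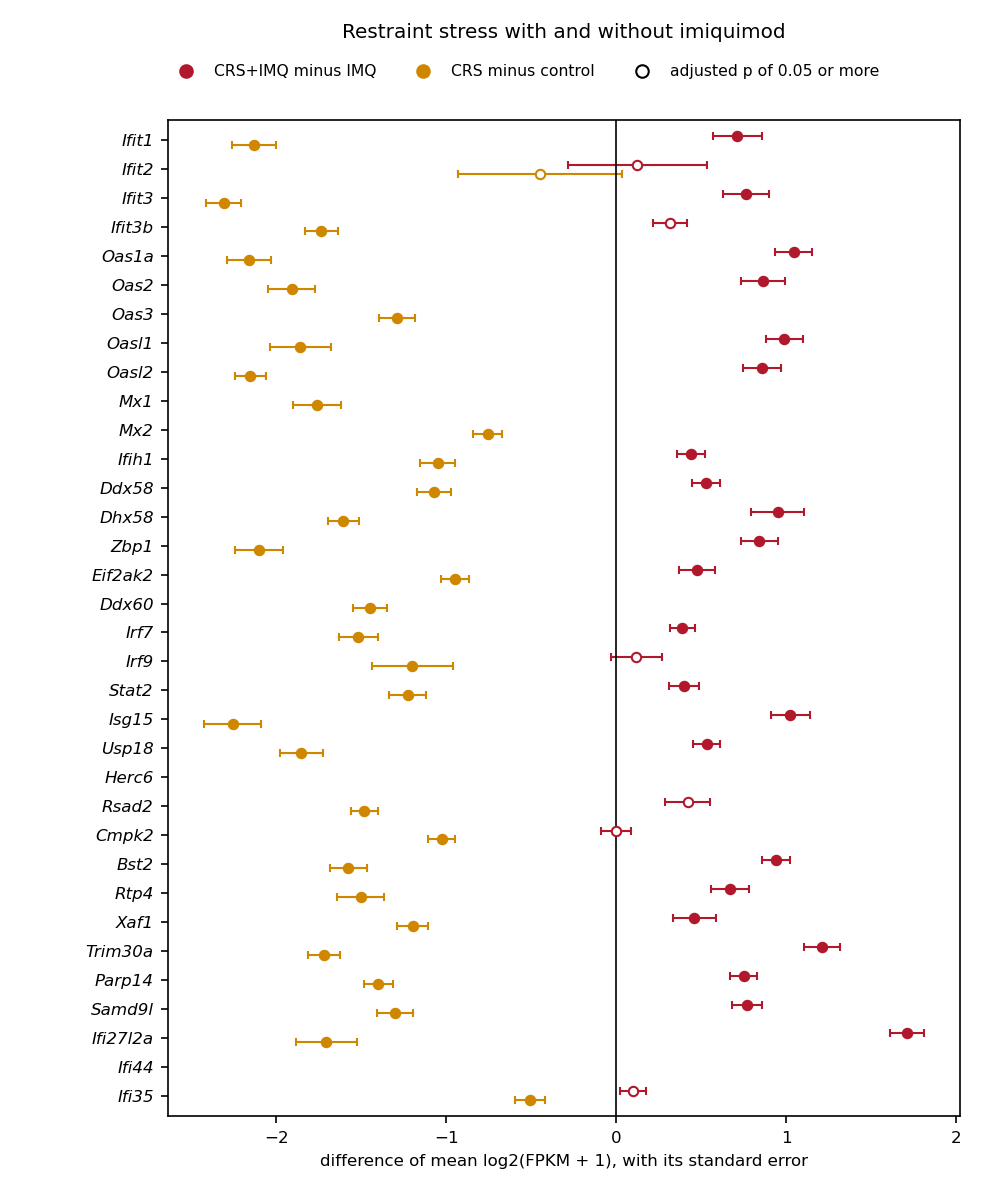
Points are differences of mean log2(FPKM + 1) per member with their standard errors, for CRS+IMQ minus IMQ and for CRS minus control, and open points had an adjusted p of 0.05 or more in limma. The CRS minus control points lie left of 0 and most CRS+IMQ minus IMQ points right of it; Herc6 and Ifi44 were not tested in either comparison, and Oas3, Mx1, Mx2 and Ddx60 only in CRS minus control.

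The Ifit genes encode tetratricopeptide proteins that bind foreign RNA ends and block its translation. In GRCm38 they lie side by side on chromosome 19, Ifit2 at 34550694-34576419, Ifit3 at 34583531-34588731, Ifit3b at 34607970-34613401 and Ifit1 at 34640871-34650009, all on the plus strand. Ifit3, the most abundant, had 5.45, 7.02 and 6.35 FPKM in CRS libraries, 10.9, 10.6 and 11.5 FPKM in CRS+IMQ libraries, 7.47, 5.05 and 5.89 FPKM in IMQ libraries, and 36.6, 32.8 and 35.4 FPKM in control libraries. The CRS and IMQ libraries overlapped, the CRS+IMQ libraries lay above both, and every treated library lay far under control. Ifit3 fell by 2.31 in CRS versus control (SE 0.10, limma adjusted p = 0.000111) and rose by 0.76 in CRS+IMQ versus IMQ (SE 0.13, adjusted p = 0.00683). Reads of Ifit3 and Ifit3b are hard to assign, as 51.2% of the 50-base runs of Ifit3 occur in another gene, most in Ifit3b, and 45% of those of Ifit3b in Ifit3. The separate values of these genes are therefore uncertain.

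Ifit3b averaged 1.87 ± 0.239 FPKM in CRS, 2.49 ± 0.162 in CRS+IMQ, 1.81 ± 0.266 in IMQ and 8.55 ± 0.636 in control (SD, n = 3 each). It fell in CRS versus control (-1.74, limma adjusted p = 0.000143) and was not called in CRS+IMQ versus IMQ (0.32, adjusted p = 0.0535), where it was called without IMQ replicate 1 or 2. Ifit1, whose protein binds RNA lacking the cap methylation of host messages, averaged 0.727 ± 0.120 FPKM in CRS, 2.22 ± 0.326 in CRS+IMQ, 0.974 ± 0.313 in IMQ and 6.62 ± 1.16 in control. It fell by 2.13 in CRS versus control and rose by 0.71 in CRS+IMQ versus IMQ (adjusted p = 0.000184 and 0.0117), but every CRS library was under 1 FPKM and the fall was tested through the control libraries alone. Ifit2 stood apart from the rest of the set. It had 0.961, 1.05 and 0.706 FPKM in CRS libraries, 2.01, 0.104 and 2.14 FPKM in CRS+IMQ libraries, 0.838, 1.10 and 1.10 FPKM in IMQ libraries, and 0.146, 2.78 and 3.03 FPKM in control libraries. A single low library in CRS+IMQ and another in control set its group means, and 0% of its 50-base runs occur in another gene. Without control replicate 1, Ifit2 fell in CRS versus control (-1.04, limma adjusted p = 0.00253) and in IMQ versus control (-0.96, adjusted p = 0.00962); without CRS+IMQ replicate 2, it rose in CRS+IMQ versus IMQ (0.62, adjusted p = 0.0173) and in CRS+IMQ versus CRS (0.69, adjusted p = 0.00369). These libraries were left out after their values were seen.

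The Oas genes encode oligoadenylate synthetases, which sense double-stranded RNA and make the messenger that activates RNase L; the proteins of the Oas-like genes have other antiviral roles, and mouse OASL1 is known to restrain translation of Irf7. Oas2, Oas3 and Oas1a lie in a cluster on chromosome 5, at 120730333-120749853, 120753098-120777661 and 120896256-120907521 on the minus strand, and Oasl2 and Oasl1 are neighbours on the plus strand at 114896936-114912234 and 114923240-114937915. Oas1a, the most abundant, had 2.51, 2.58 and 2.30 FPKM in CRS libraries, 5.94, 5.84 and 6.06 FPKM in CRS+IMQ libraries, 2.14, 2.14 and 2.88 FPKM in IMQ libraries, and 17.6, 13.9 and 12.5 FPKM in control libraries. No CRS+IMQ library overlapped any other group, and CRS overlapped IMQ. Oas1a fell by 2.16 in CRS versus control (SE 0.13, limma adjusted p = 0.000175) and rose by 1.04 in CRS+IMQ versus IMQ (SE 0.11, adjusted p = 0.000825). Of its 50-base runs 57.6% occur in another gene, most in Oas1g, so its value is uncertain.

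All 5 Oas genes fell in CRS versus control, where 28.4% of all genes tested fell. All 4 tested rose in CRS+IMQ versus IMQ, where 18.7% of all genes tested rose. On the log2(FPKM + 1) scale the falls were 1.29 (Oas3) to 2.16 and the rises 0.86 (Oas2 and Oasl2) to 1.04. That scale understates low genes. As a share of the control mean Oas3 had the lowest CRS level of the Oas genes, 9.27%, against 16.8% for Oas1a. Oas2 averaged 1.97 ± 0.262 FPKM in CRS, 4.11 ± 0.407 in CRS+IMQ, 1.82 ± 0.398 in IMQ and 10.2 ± 1.86 in control (SD, n = 3 each). Oasl2 averaged 1.63 ± 0.0234, 3.49 ± 0.266, 1.49 ± 0.282 and 10.7 ± 1.12 FPKM in CRS, CRS+IMQ, IMQ and control. Oasl1 averaged 0.686 ± 0.173 FPKM in CRS, 1.88 ± 0.0960 in CRS+IMQ, 0.461 ± 0.182 in IMQ and 5.20 ± 1.45 in control, and the IMQ level was the smallest share of control of any member, 8.87%. Oas3, at 0.175 FPKM in both CRS and IMQ (SD 0.0395 and 0.0540), 0.733 ± 0.0708 in CRS+IMQ and 1.89 ± 0.336 in control, passed the filter through control alone. So did Oasl1 in CRS versus control, and its rise in CRS+IMQ versus IMQ was tested through the CRS+IMQ libraries alone.

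The Mx genes encode dynamin-like GTPases that trap viral nucleocapsids; C57BL/6 mice are known to carry defective Mx alleles, and Mx2 is annotated as a polymorphic pseudogene in GENCODE M21. They lie on chromosome 16, Mx1 at 97447035-97462907 on the minus strand and Mx2 at 97535308-97560900 on the plus strand. Mx1 had 0.258, 0.237 and 0.552 FPKM in CRS libraries, 1.12, 0.712 and 1.40 FPKM in CRS+IMQ libraries, 0.456, 0.582 and 0.599 FPKM in IMQ libraries, and 4.16, 3.59 and 2.98 FPKM in control libraries. CRS+IMQ lay above both CRS and IMQ without overlap, and control above all. Mx1 fell in CRS versus control (-1.76, SE 0.14, limma adjusted p = 0.000364). Mx2 fell there too (-0.76, adjusted p = 0.00103), with means of 0.303 ± 0.0528 FPKM in CRS, 0.570 ± 0.230 in CRS+IMQ, 0.295 ± 0.0601 in IMQ and 1.20 ± 0.120 in control (SD, n = 3 each). Both were under 1 FPKM in every CRS library and passed the filter through the control libraries alone, which favored a fall. Neither was tested in CRS+IMQ versus IMQ for want of 3 libraries at 1 FPKM.

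The sensor group holds the RNA helicases of the RIG-I family (Ddx58, which encodes RIG-I; Ifih1, MDA5; Dhx58, LGP2), the helicase gene Ddx60, Zbp1, which encodes a Z-form nucleic acid sensor linked to cell death, and Eif2ak2, the double-stranded RNA kinase PKR. All 6 fell in CRS versus control, from -0.95 (Eif2ak2) to -2.10 (Zbp1), where 28.4% of all genes tested fell. Among them Ddx60 was tested through the control libraries alone. The 5 tested in CRS+IMQ versus IMQ all rose, from 0.44 (Ifih1) to 0.95 (Dhx58), where 18.7% of all genes tested rose. These ranges are on the log2(FPKM + 1) scale, which understates low genes such as Ddx60. Zbp1, on chromosome 2 at 173206612-173218923 (minus strand), had 1.46, 1.36 and 1.08 FPKM in CRS libraries, 2.36, 2.86 and 2.53 FPKM in CRS+IMQ libraries, 0.904, 0.864 and 1.23 FPKM in IMQ libraries, and 10.8, 8.52 and 7.54 FPKM in control libraries. CRS and IMQ overlapped, and CRS+IMQ stood above both at 28.8% of the control mean.

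Among the helicases, Dhx58 averaged 1.22 ± 0.167 FPKM in CRS, 3.20 ± 0.0663 in CRS+IMQ, 1.21 ± 0.472 in IMQ and 5.77 ± 0.376 in control (SD, n = 3 each). Ddx58 averaged 1.60 ± 0.180, 3.04 ± 0.0539, 1.81 ± 0.147 and 4.48 ± 0.518 FPKM in CRS, CRS+IMQ, IMQ and control. In CRS+IMQ these genes stood at 55.5% and 67.9% of control, among the higher shares of the set. Ifih1 averaged 1.04 ± 0.229 FPKM in CRS, 1.57 ± 0.0331 in CRS+IMQ, 0.903 ± 0.131 in IMQ and 3.21 ± 0.106 in control, and Eif2ak2 averaged 1.37 ± 0.0945, 2.14 ± 0.113, 1.27 ± 0.243 and 3.58 ± 0.280 FPKM in the same groups. The rise of Eif2ak2 in CRS+IMQ versus IMQ (0.48, limma adjusted p = 0.0154) was lost without CRS+IMQ replicate 1 or 2. Ddx60, tested in CRS versus control through the control libraries alone, had the smallest CRS share of control of any member, with 0.136 ± 0.0648 FPKM in CRS, 0.551 ± 0.0129 in CRS+IMQ, 0.214 ± 0.0795 in IMQ and 2.10 ± 0.291 in control.

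The transcription factors Irf9 and Stat2 are parts of the complex that binds the response element, and Irf7 is the interferon-induced factor that amplifies interferon transcription. All 3 fell in CRS versus control, where 28.4% of all genes tested fell. Irf7, on chromosome 7 at 141262706-141266481 (minus strand), had 3.89, 3.79 and 4.47 FPKM in CRS libraries, 4.21, 4.40 and 4.07 FPKM in CRS+IMQ libraries, 2.96, 3.06 and 2.97 FPKM in IMQ libraries, and 15.7, 12.2 and 12.7 FPKM in control libraries. CRS and CRS+IMQ overlapped, and IMQ was lowest. Irf7 fell by 1.52 in CRS versus control (SE 0.11, limma adjusted p = 0.000320), rose by 0.39 in CRS+IMQ versus IMQ (SE 0.07, adjusted p = 0.00864), and differed by 0.05 in CRS+IMQ versus CRS (adjusted p = 0.538).

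Stat2 averaged 2.0 ± 0.357 FPKM in CRS, 2.75 ± 0.228 in CRS+IMQ, 1.84 ± 0.159 in IMQ and 6.01 ± 0.400 in control (SD, n = 3 each). It fell in CRS versus control (-1.23, limma adjusted p = 0.000510) and rose in CRS+IMQ versus IMQ (0.40, adjusted p = 0.0167), a call that was lost without IMQ replicate 3 or without CRS+IMQ replicate 2 or 3. Irf9 was the most variable factor, at 3.22 ± 0.907 FPKM in CRS, 4.36 ± 0.428 in CRS+IMQ, 3.98 ± 0.864 in IMQ and 8.81 ± 2.75 in control. It fell in CRS versus control (-1.20, adjusted p = 0.00891) and in IMQ versus control (-0.96, adjusted p = 0.0325), and the call in IMQ versus control was lost without control replicate 1 or 2 or IMQ replicate 2 or 3. It was not called in either comparison of CRS+IMQ. The span of Irf7 overlaps that of Phrf1 on the other strand, and the span of Irf9 overlaps that of Rnf31 on the same strand. Of the 50-base runs 0% of Irf7 and 1.82% of Irf9 occur in another gene. The sources used here do not say whether the counting used strand, which would not separate Irf9 from Rnf31. Reads of these neighbours may therefore be included.

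Isg15 encodes a ubiquitin-like modifier, Usp18 the protease that removes it and also blocks the interferon receptor, and Herc6 the ligase known to attach it in mouse. Isg15, on chromosome 4 at 156199424-156200818 (minus strand), had 4.38, 4.75 and 5.56 FPKM in CRS libraries, 12.2, 9.76 and 10.2 FPKM in CRS+IMQ libraries, 4.15, 5.19 and 4.90 FPKM in IMQ libraries, and 34.2, 25.9 and 22.4 FPKM in control libraries. CRS and IMQ overlapped, and CRS+IMQ stood above both without overlap. Isg15 fell by 2.26 in CRS versus control (SE 0.17, limma adjusted p = 0.000298) and rose by 1.02 in CRS+IMQ versus IMQ (SE 0.12, adjusted p = 0.00130). Usp18 averaged 1.08 ± 0.0922 FPKM in CRS, 1.83 ± 0.0432 in CRS+IMQ, 0.959 ± 0.0978 in IMQ and 6.59 ± 1.16 in control, a fall of 1.85 in CRS versus control and a rise of 0.53 in CRS+IMQ versus IMQ (adjusted p = 0.000246 and 0.00330). Herc6 was under 1 FPKM in all but 1 library and was not tested; its means were 0.199 FPKM in CRS, 0.508 in CRS+IMQ, 0.266 in IMQ and 0.908 in control.

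**Figure D3:**
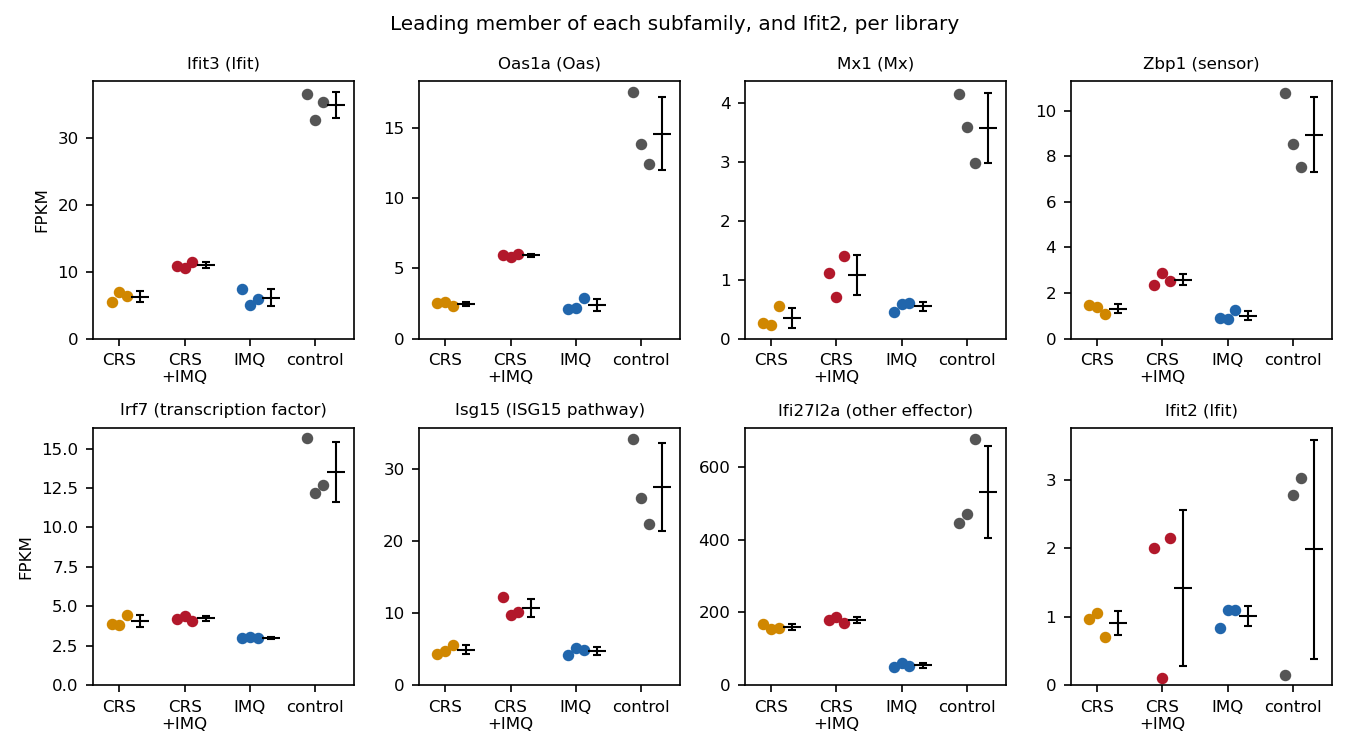
Points are FPKM in each library for the most abundant member of each subfamily and for Ifit2, with the mean and SD of each group of 3 as a bar to the right, on linear axes from 0. Control lies above the other groups in every panel but that of Ifit2, and in Ifi27l2a and Irf7 the IMQ points lie below the CRS points.

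Of the 11 other effectors, 10 were tested in CRS versus control and all fell, from -0.51 (Ifi35) to -1.72 (Trim30a) on the log2(FPKM + 1) scale. There 28.4% of all genes tested fell. In CRS+IMQ versus IMQ 7 of 10 rose, where 18.7% of all genes tested rose. Rsad2 was tested for the fall through the control libraries alone, and Rtp4 for the rise through the CRS+IMQ libraries alone. Ifi27l2a, a small mitochondrial and nuclear-envelope protein gene of the ISG12 family on chromosome 12 at 103442167-103443680 (minus strand), was by far the most abundant member. It had 169, 153 and 156 FPKM in CRS libraries, 180, 188 and 170 FPKM in CRS+IMQ libraries, 48.8, 61.0 and 52.8 FPKM in IMQ libraries, and 447, 470 and 676 FPKM in control libraries. CRS and CRS+IMQ lay close together, and IMQ lay well below both. On the log2(FPKM + 1) scale Ifi27l2a had the largest fall in IMQ versus control (-3.25, SE 0.20, limma adjusted p = 0.000521) and the largest rise in CRS+IMQ versus IMQ (1.71, SE 0.10, adjusted p = 0.000106) among the members tested. That scale understates low genes. As a ratio of group means Oasl1, under 1 FPKM in every IMQ library, fell 11.3-fold in IMQ versus control, against 9.79-fold for Ifi27l2a. In CRS+IMQ versus IMQ Oasl1 rose 4.08-fold, against 3.31-fold for Ifi27l2a. Against CRS, Ifi27l2a differed by 0.17 in CRS+IMQ (limma adjusted p = 0.0378), a call that was lost without CRS replicate 2 or 3 or CRS+IMQ replicate 1 or 2. Its sign turned with quantile normalization (-0.16). It supplied the largest share of the set's summed FPKM in every group, so the sums above follow it more than any other member.

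Trim30a, a tripartite-motif gene that restrains inflammatory signaling in mouse, came closest to control in CRS+IMQ. It averaged 1.36 ± 0.146 FPKM in CRS, 5.35 ± 0.651 in CRS+IMQ, 1.74 ± 0.144 in IMQ and 6.79 ± 0.612 in control (SD, n = 3 each). It rose by 1.21 in CRS+IMQ versus IMQ (limma adjusted p = 0.000401) and by 1.43 in CRS+IMQ versus CRS (adjusted p = 4.11e-05). The latter was the largest rise of a tested member there on the log2(FPKM + 1) scale. As a ratio of group means the rise of Rsad2 there was larger, 4.42 against 3.94 for Trim30a. Bst2, which encodes tetherin, a membrane protein that holds budding virions, averaged 28.2 ± 1.19 FPKM in CRS, 43.4 ± 0.527 in CRS+IMQ, 22.2 ± 1.87 in IMQ and 86.6 ± 10.8 in control. It fell by 1.58 in CRS versus control and rose by 0.94 in CRS+IMQ versus IMQ (adjusted p = 0.000251 and 0.000375).

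Rsad2 and Cmpk2 are neighbours on chromosome 12, at 26442746-26456452 (minus strand) and 26469204-26479837 (plus strand); the first encodes viperin, which makes a chain-terminating nucleotide, and the second a mitochondrial nucleotide kinase that feeds it. Rsad2 averaged 0.402 ± 0.0602 FPKM in CRS, 1.78 ± 0.119 in CRS+IMQ, 1.09 ± 0.326 in IMQ and 2.92 ± 0.132 in control, and Cmpk2 averaged 1.05 ± 0.0582, 1.18 ± 0.168, 1.18 ± 0.0428 and 3.18 ± 0.247 FPKM in the same groups. Both fell in CRS versus control (-1.48 and -1.03, limma adjusted p = 0.000140 and 0.000353). In CRS+IMQ versus CRS Rsad2 rose by 0.99 (adjusted p = 4.43e-05) and Cmpk2 differed by 0.09 (adjusted p = 0.362); the difference between these genes was not tested. Rsad2 was under 1 FPKM in every CRS library, so its fall was tested through the control libraries alone and its rise through the CRS+IMQ libraries alone. Against IMQ, Rsad2 differed by 0.42 in CRS+IMQ (adjusted p = 0.0517), with the groups apart, and Cmpk2 by -0.00 (adjusted p = 0.986). Rsad2 was called there without IMQ replicate 1 or 2 and in a fit of all 12 libraries (adjusted p = 0.0106).

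Parp14, a mono-ADP-ribosyltransferase, averaged 1.75 ± 0.115 FPKM in CRS, 3.76 ± 0.244 in CRS+IMQ, 1.83 ± 0.0187 in IMQ and 6.26 ± 0.464 in control (SD, n = 3 each). Samd9l, a translation-repressing antiviral gene, averaged 1.35 ± 0.125, 3.20 ± 0.147, 1.47 ± 0.175 and 4.81 ± 0.669 FPKM in CRS, CRS+IMQ, IMQ and control. These genes rose by 0.75 and 0.77 in CRS+IMQ versus IMQ (limma adjusted p = 0.000855 and 0.00126). Xaf1, a pro-apoptotic gene, averaged 1.49 ± 0.155 FPKM in CRS, 2.11 ± 0.137 in CRS+IMQ, 1.28 ± 0.336 in IMQ and 4.72 ± 0.369 in control, and its rise of 0.46 in CRS+IMQ versus IMQ was lost without any 1 of the CRS+IMQ libraries. Rtp4, which encodes a receptor transporter protein with antiviral activity, averaged 1.38 ± 0.139 FPKM in CRS, 1.89 ± 0.379 in CRS+IMQ, 0.809 ± 0.0224 in IMQ and 5.80 ± 1.15 in control. Its rise in CRS+IMQ versus IMQ (0.67, adjusted p = 0.00528) was tested through the CRS+IMQ libraries alone. It overlaps Masp1 on the other strand, and 11.6% of its 50-base runs occur in another gene.

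Ifi35 and Ifi44 were the members with their own order of levels. Ifi35, a cytoplasmic protein gene that partners NMI, averaged 16.9 ± 0.733 FPKM in CRS, 15.7 ± 0.302 in CRS+IMQ, 14.6 ± 0.973 in IMQ and 24.5 ± 2.05 in control (SD, n = 3 each). It had the smallest called falls, -0.51 in CRS versus control and -0.71 in IMQ versus control (limma adjusted p = 0.00503 and 0.00804), and it was the member whose CRS+IMQ libraries lay wholly below the CRS libraries (-0.10, adjusted p = 0.0861). Ifi44 averaged 0.171 FPKM in CRS, 0.245 in CRS+IMQ, 0.297 in IMQ and 1.01 in control and was not tested.

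Members with an ISRE core in their window were set beside those without, as a description. The 14 with a match had a median difference of -1.53 in CRS versus control and the 9 tested without a match -1.20. Ifit1, Oas3, Ddx60 and Rsad2 with a match and Oasl1 without passed the filter there through the control libraries alone. Their falls are therefore no support. The medians in CRS+IMQ versus IMQ were 0.62 over 12 tested with a match and 0.39 over 9 tested without. Of these 10 and 5 rose, where 18.7% of all genes tested rose. Oas3 and Ddx60, each with a match, were not tested there, and Oasl1 was tested through the CRS+IMQ libraries alone. The ranges overlapped widely: from -2.31 to -0.95 with a match and from -2.15 to -0.45 without in CRS versus control.

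In the authors' deposited table all 34 members were lower in CRS than in control and 32 were marked significant, the exceptions being Ifi35 and Ifit2. For CRS+IMQ versus IMQ the authors' deposited table had 33 members higher and 1 lower (Ifi44), with 15 marked significant. The members marked there had ratios of 2.06 (Parp14) or more, and those not marked had 1.98 (Mx1) or less. Bst2, with an authors' ratio of 1.96 and a q-value of 2.30e-05 in the authors' deposited table, was among those not marked there. The calls made here used no cut on the ratio, so these counts are not alike. The share of all genes that the authors marked was not counted.

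The upstream pathway was examined through genes listed by role. Of 21 interferon genes, all were matched, 17 to 19 per group were listed at 0 in all 3 libraries, and none reached the level to be tested. Their summed level per library was 0.0258 to 0.147 FPKM in CRS, 0.00839 to 0.130 in CRS+IMQ, 0.00831 to 0.157 in IMQ and 0.133 to 0.152 in control. Beyond these traces interferon transcripts were not detectable at this depth in any group, and the part of interferon in the members' levels was not tested.

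Receptor genes were measured in all groups. Of 6 receptor chains 3 fell and none rose in CRS versus control, and 3 rose and 1 fell in CRS+IMQ versus IMQ. Of all genes tested 28.4% fell in CRS versus control and 18.7% rose in CRS+IMQ versus IMQ, and this list is short. The most abundant chains were those of the type II receptor. In CRS versus control Ifngr2 differed by 0.00016 (SE 0.14, limma adjusted p = 0.999), and against IMQ it differed by 0.18 in CRS+IMQ (SE 0.18, adjusted p = 0.465). Ifngr1 differed by -0.77 and 0.94 in these comparisons (SE 0.53 and 0.32, adjusted p = 0.282 and 0.0678), with libraries from 6.19 to 18.2 FPKM in CRS, 11.6 to 12.4 in CRS+IMQ, 3.42 to 10.2 in IMQ and 10.6 to 31.4 in control. Neither was called. Ifnar2, a chain of the type I receptor, had 6.17, 5.63 and 5.18 FPKM in CRS libraries, 12.1, 11.9 and 11.9 FPKM in CRS+IMQ libraries, 5.37, 5.53 and 5.37 FPKM in IMQ libraries, and 8.60, 6.95 and 9.78 FPKM in control libraries. It stood highest in CRS+IMQ (1.01 against IMQ, limma adjusted p = 0.000153; -0.50 in CRS against control, adjusted p = 0.0237). Its partner Ifnar1 rose by 0.71 in CRS+IMQ versus IMQ (adjusted p = 0.00443) and was not called in CRS versus control (-0.28, adjusted p = 0.0646). The differences of type I from type II receptor chains were not tested.

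Of 4 kinase and STAT genes 2 fell in CRS versus control (Jak1 -0.67 and Tyk2 -0.73) and 3 rose in CRS+IMQ versus IMQ (Jak1 0.84, Stat3 0.72 and Jak2 0.72). These genes are few, and of all genes tested 28.4% fell and 18.7% rose in these comparisons. Jak1, a kinase of the type I receptor, averaged 12.8 ± 0.235 FPKM in CRS, 23.0 ± 0.362 in CRS+IMQ, 12.4 ± 0.849 in IMQ and 20.9 ± 0.959 in control (SD, n = 3 each). Among the other interferon regulatory factors Irf1, Irf2 and Irf8 all fell in CRS versus control, and Irf2 and Irf8 rose in CRS+IMQ versus IMQ.

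Nucleic acid sensing genes upstream of interferon were mostly called. In CRS versus control 10 of 14 tested fell and none rose, where 28.4% of all genes tested fell. In CRS+IMQ versus IMQ 11 of 15 rose and none fell, where 18.7% of all genes tested rose. Unc93b1, the chaperone that carries TLR7 and related receptors to endosomes, had 13.3, 13.1 and 14.4 FPKM in CRS libraries, 76.4, 78.0 and 75.1 FPKM in CRS+IMQ libraries, 13.3, 21.6 and 16.4 FPKM in IMQ libraries, and 67.2, 49.1 and 46.7 FPKM in control libraries. Tlr7, the receptor for imiquimod, averaged 0.474 ± 0.0508 FPKM in CRS, 2.10 ± 1.32 in CRS+IMQ, 0.472 ± 0.101 in IMQ and 2.64 ± 1.27 in control. It was called in CRS versus control (-1.23, limma adjusted p = 0.0139) and in CRS+IMQ versus IMQ (0.99, adjusted p = 0.0398). No CRS or IMQ library reached 1 FPKM, so Tlr7 was tested through the control libraries alone and through the CRS+IMQ libraries alone. The filter favored these calls, which are in the counts above and are no support. Myd88, the adaptor of TLR7 and related receptors, fell by 0.82 and rose by 1.06 in the same comparisons. Irf3 and Mavs, which act in the RIG-I branch, were called in neither.

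Of 8 negative regulators and ISG15-conjugation genes 3 fell and 1 rose in CRS versus control, and 5 rose in CRS+IMQ versus IMQ. Of all genes tested 28.4% fell and 18.7% rose in these comparisons, and the count that fell was near the first share. Ptpn6, a phosphatase of blood cells, fell by 1.60 and rose by 1.85 in these comparisons, and Uba7, which activates ISG15, fell by 1.13 and rose by 0.65. Socs3, a feedback inhibitor of STAT3-activating receptors, averaged 16.8 ± 0.219 FPKM in CRS, 50.9 ± 0.933 in CRS+IMQ, 14.5 ± 0.819 in IMQ and 11.7 ± 1.33 in control (SD, n = 3 each) and rose in both comparisons (0.49 and 1.75, limma adjusted p = 0.00794 and 2.89e-05).

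**Figure D4:**
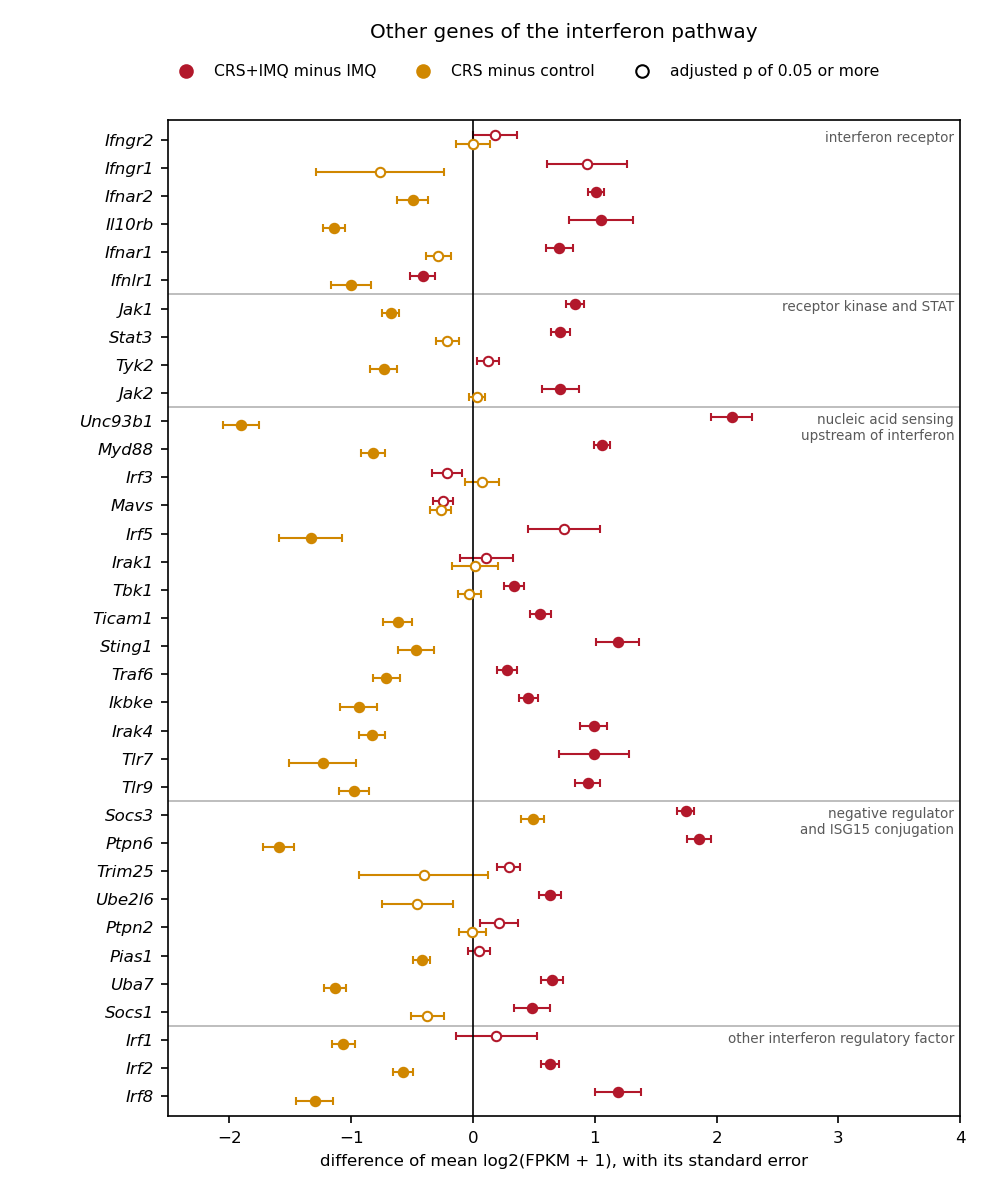
Points are differences of mean log2(FPKM + 1) with their standard errors for the 35 pathway genes tested in both comparisons, by role, for CRS+IMQ minus IMQ and CRS minus control; open points had an adjusted p of 0.05 or more in limma. Unc93b1 (2.12 in CRS+IMQ minus IMQ, -1.90 in CRS minus control) and Ptpn6 (1.85 and -1.60) have the widest gaps between the points, while Socs3 lies right of 0 in both.

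Markers of the cell types that skin can hold were set beside the members. Of all genes tested 28.4% fell in CRS versus control and 13.5% fell in IMQ versus control. In CRS+IMQ versus IMQ 18.7% rose, and 2544 of 13981 fell. All 12 macrophage and monocyte markers fell in CRS versus control and in IMQ versus control, and 11 rose in CRS+IMQ versus IMQ; they summed to 250 to 264 FPKM in CRS, 2405 to 2416 in CRS+IMQ, 254 to 368 in IMQ and 1574 to 2198 in control, with none at 0. Their sum was higher in every CRS+IMQ library than in any control library, which for the members it was not. Of 8 dendritic and Langerhans cell markers the 5 tested fell in CRS versus control, with sums of 149 to 159, 97.4 to 104, 151 to 221 and 754 to 1360 FPKM in CRS, CRS+IMQ, IMQ and control; 3 of the 4 tested fell in CRS+IMQ versus IMQ, where the members rose. Of 10 T and NK cell markers the 6 tested fell in CRS versus control, with sums of 4.42 to 5.15, 10.4 to 11.3, 6.15 to 6.49 and 15.2 to 25.7 FPKM in those groups, whose order was that of the 12 members with IMQ above CRS. The part of these cells in the members' levels was not tested.

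Of the 9 plasmacytoid dendritic cell markers 4 were tested in CRS versus control. There 3 fell and 1 rose, where 28.4% of all genes tested fell. In CRS+IMQ versus IMQ 4 of 5 tested rose and 1 fell, where 18.7% of all genes tested rose. The defining Siglech was low but highest in control, at means of 0.051 FPKM in CRS, 0.120 in CRS+IMQ, 0.191 in IMQ and 0.625 in control. The list's sum (703 to 747, 1362 to 1406, 759 to 1145 and 931 to 1098 FPKM in CRS, CRS+IMQ, IMQ and control) came mostly from Ly6d and Cox6a2, which keratinocytes and muscle also express. Neutrophil markers summed to 30.5 to 41.7 FPKM in CRS, 2718 to 2840 in CRS+IMQ, 22.0 to 282 in IMQ and 7.08 to 10.8 in control, where Ly6g and Mpo were listed at 0. Keratinocyte markers, which define the labelled tissue, were present in all libraries at sums of 3240 to 3414, 14197 to 14381, 5816 to 8706 and 7413 to 11807 FPKM in the same groups. Skeletal muscle markers summed to 33827 to 34869, 10204 to 10451, 17427 to 24685 and 9003 to 20339 FPKM in CRS, CRS+IMQ, IMQ and control, and hair follicle markers to 213 to 223, 8.93 to 11.9, 37.7 to 1106 and 3.98 to 5.53 FPKM. In the same order, fibroblast markers summed to 889 to 893, 2022 to 2051, 278 to 645 and 563 to 901 FPKM and endothelial markers to 34.5 to 35.7, 82.5 to 84.3, 43.4 to 54.6 and 30.3 to 43.5 FPKM. The IMQ libraries, which spread from 37.7 to 1106 FPKM in hair follicle markers, spread from 132 to 147 FPKM in the sum of the members. That sum follows Ifi27l2a (48.8 to 61.0 FPKM in IMQ) more than any other member, so its range says little about the rest. The part of tissue makeup in the members' differences was not tested.

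**Figure D5:**
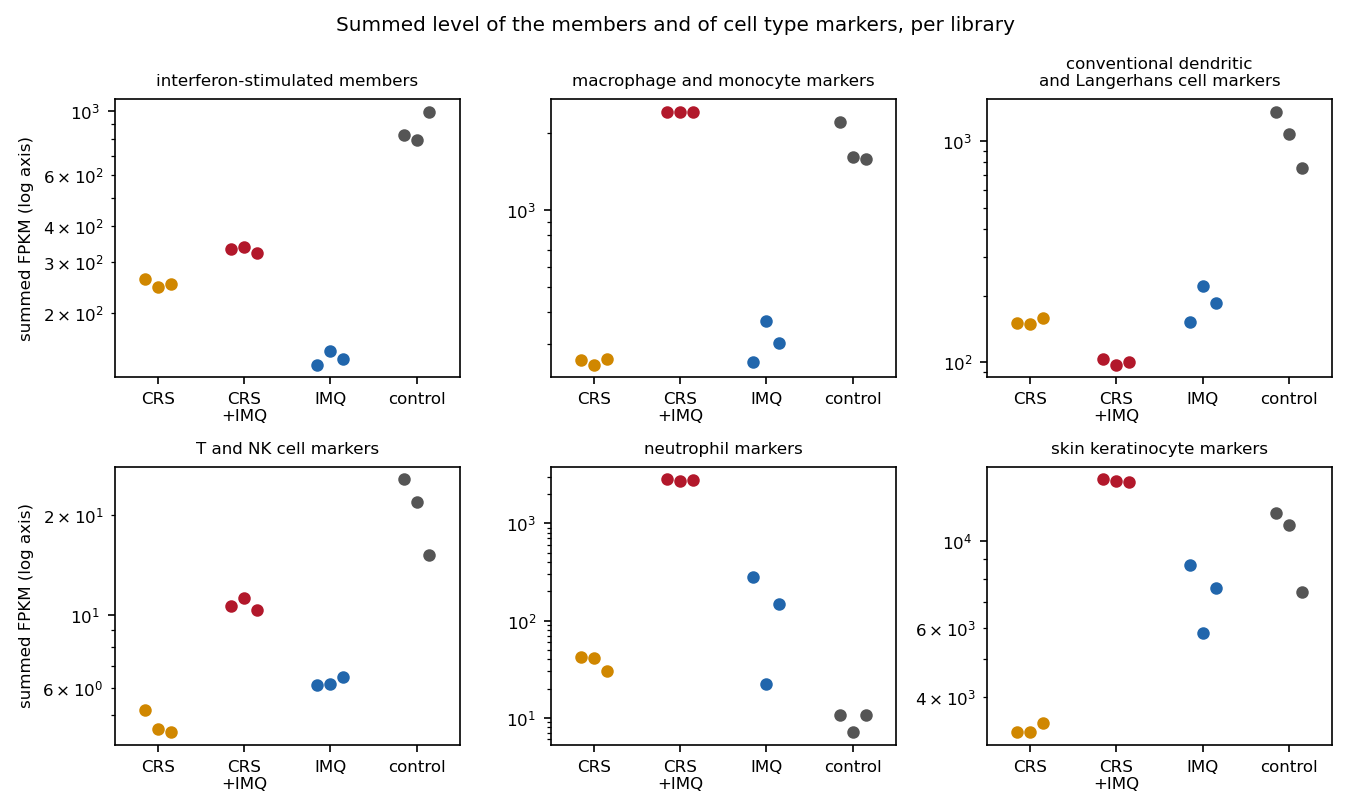
Points are the summed FPKM of the 34 members and of 5 marker lists in each library, by group, on log axes. Control is highest for the members, dendritic and T and NK cell lists, whereas CRS+IMQ is highest for the macrophage, neutrophil and keratinocyte lists.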

How the data were processed

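RNA had been extracted from dorsal skin and sequenced on a NovaSeq instrument, per the labels. The submitters' processing notes named StringTie, edgeR and limma without a role or version, and build mm10. No aligner is named in the sources used here. The authors deposited FPKM per library in 2 tables, with values of 0.0001 in place of 0, set to 0 here. Per the file headers the tables also hold the authors' ratio between groups and that ratio as log2, each with its p-value and q-value. Counts were not analysed here.

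Genes at 1 FPKM or more in at least 3 libraries of a comparison were fitted as log2(FPKM + 1) with limma 3.58.1 (R 4.3.3, statmod 1.5.0; trend and robust variances), on the 6 libraries compared or on all 12 for the interaction. Tests were two-sided, with Benjamini-Hochberg adjustment over every gene tested and a threshold of 0.05. With 3 against 3 the smallest exact p is 0.1, so calls rest on limma's variance model. Differences on this scale understate those of low genes. The code was tested on simulated data. Positions, overlaps of whole gene spans and shared 50-base runs came from GENCODE M21 on GRCm38.

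The members and gene lists, and the alternatives, were chosen with earlier results of these data known. All members are named; values of every library are given for the most abundant member of each subfamily and, chosen after its values were seen, Ifit2, and up to 4 tested pathway genes with the highest mean FPKM of each role were to be named. One gene of the pathway list is not reported here and was left out of its counts. Uba7, Tlr7 and Ifnar1, and the pathway genes whose libraries are given one by one (Ifnar2 and Unc93b1), were chosen after their values were seen. Cgas, Tlr3, Tlr8 and Traf3 were not tested in 1 or more comparisons, and the hair follicle marker Krt85 was not matched. Same-numbered libraries did not deviate together: the correlation of their deviations was between -0.125 and 0.0385. Alternatives were quantile and median-ratio scaling, a pseudocount of 0.1, no filter, the replicate number as a block, other sets of libraries, each stressed group as 1 sample, a spread per group and leaving out each library.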

Additional observations from a re-analysis of the deposited data

Results flagged for a closer look

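The effect of restraint stress differed with and without imiquimod in 31 members, by limma's test of the interaction over all 12 libraries; the difference is given as log2, (CRS+IMQ minus IMQ) minus (CRS minus control), with the largest adjusted p 0.00423 (Irf9). With each stressed group as 1 sample the calls of Irf9 and Ifi35 were lost (limma adjusted p = 0.111 and 0.125). In the Ifit group it was 2.84 for Ifit1, 3.07 for Ifit3 and 2.05 for Ifit3b. In the Oas group it was 3.21 for Oas1a, 2.77 for Oas2, 1.85 for Oas3, 2.85 for Oasl1 and 3.01 for Oasl2. Mx1 had 2.18 and Mx2 1.03. The sensors had 1.49 for Ifih1, 1.60 for Ddx58, 2.56 for Dhx58, 2.94 for Zbp1, 1.42 for Eif2ak2 and 1.80 for Ddx60. Among the factors Irf7 had 1.91, Irf9 1.32 and Stat2 1.63. Isg15 had 3.28 and Usp18 2.39. The other effectors had 1.90 for Rsad2, 1.03 for Cmpk2, 2.52 for Bst2, 2.17 for Rtp4, 1.66 for Xaf1, 2.93 for Trim30a, 2.15 for Parp14, 2.07 for Samd9l, 3.42 for Ifi27l2a and 0.61 for Ifi35. Ifit2 was not called (0.57, limma adjusted p = 0.517), and Herc6 and Ifi44 were not tested. The interaction was called above 0 in 28.1% of all 14864 genes tested. Oas3, Mx2 and Ddx60 reached 1 FPKM in control libraries alone, so that the filter favored a value above 0 and their calls are no support.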

How the results depend on the processing

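The members' median kept its direction in every alternative run. With a pseudocount of 0.1 it was -2.06 in CRS versus control, 0.92 in CRS+IMQ versus IMQ, -2.16 in IMQ versus control, 0.76 in CRS+IMQ versus CRS and 3.19 in the interaction; a smaller pseudocount gives low genes larger differences by construction. With quantile normalization it was -1.36 in CRS versus control, 0.62 in CRS+IMQ versus IMQ, 0.47 in CRS+IMQ versus CRS and 1.96 in the interaction, and with median-ratio scaling it was -1.41 in CRS versus control. In CRS+IMQ versus CRS median-ratio scaling gave 0.55, and each scaling called 1 member lower there (Ifi35). With each stressed group as 1 sample, which leaves fewer samples, 2 members rose in CRS+IMQ versus IMQ and 2 in CRS+IMQ versus CRS, and all genes called numbered 793 in CRS versus control, 820 in CRS+IMQ versus IMQ, 1194 in CRS+IMQ versus CRS and 2417 in the interaction. One fit of all 12 libraries called 5107 genes in IMQ versus control. Leaving out each library gave 3427 to 6156 genes and a members' median of 0.62 to 0.71 in CRS+IMQ versus IMQ, and 1329 to 2815 genes in IMQ versus control.

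Signs turned in 5 uncalled or weakly called members, and the cause was not tested. In CRS+IMQ versus IMQ Cmpk2 was 0.033 with median-ratio scaling, 0.000372 with each stressed group as 1 sample and -0.063 to 0.044 leaving out each library; Ifit2 was -0.16 with a pseudocount of 0.1 and -0.14 to 0.62 leaving out each library, and Irf9 was -0.035 to 0.20. In CRS+IMQ versus CRS quantile normalization gave -0.013 for Cmpk2, -0.16 for Ifi27l2a and -0.070 for Irf7, median-ratio scaling gave -0.013 for Irf7, and Ifit2 was -0.0088 with a pseudocount of 0.1 and -0.060 to 0.69 leaving out each library.

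With the replicate block, 31 members fell in CRS versus control, where 3267 of all 13944 genes tested fell. In CRS+IMQ versus IMQ 20 rose, where 2192 of 13981 genes rose. In IMQ versus control 31 fell, where 1464 of 13981 genes fell. In CRS+IMQ versus CRS 20 rose, where 4593 of 14021 genes rose. In the interaction 31 were above 0, where 4066 of 14864 genes were. The shared numbers did not pair the libraries, and of the 3 libraries of a group 0 or 1 was closest to its own number. Depth limits members with few fragments, and 3 libraries a group, perhaps not from separate mice, limit every p-value.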
